A study of Caenorhabditis elegans with 6 samples.

Results

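The flp and nlp genes of the nematode Caenorhabditis elegans encode precursor proteins that are cut into short signalling peptides. The genes described here are those whose symbol is flp or nlp followed by a number, 106 of the 46769 genes in the table, of which 20090 are protein-coding. They comprise 31 flp genes, 64 nlp genes outside nlp-24 to nlp-34, and the 11 genes nlp-24 to nlp-34, which are treated apart because they are known as epidermal antimicrobial peptide genes. Polyadenylated RNA was sequenced from 3 libraries of plp-1(ok2155), which the labels describe as a loss-of-function allele, and from 3 libraries of the wild-type strain N2. All animals were hermaphrodites of every stage, embryo to adult, fed OP50 bacteria at 20 °C, and the mutant is 1 strain with 1 allele. plp-1 encodes a nucleic acid-binding protein related to Pur-alpha.

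FMRFamide-like peptides, from flp genes, end in an amidated arginine-phenylalanine motif, while the nlp genes encode peptides of several unrelated kinds. Neuronal precursors are cut by proprotein convertases, trimmed and often amidated inside dense core vesicles, and the released peptides act mainly on G protein-coupled receptors to set locomotion, feeding, egg laying, defecation and sleep. The nlp-29 group differs: its small glycine-rich peptides are made in the epidermis, where fungal infection and wounding induce them through a p38 MAP kinase pathway.

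plp-1 itself had 20.4, 17.6 and 23.0 CPM (counts scaled to a common library size) in plp-1(ok2155), against 293, 430 and 379 CPM in wild-type, a log2 fold change of -4.17 (SE 0.28, adjusted p = 0.00242). Libraries held 41925388 to 46800016 counts in plp-1(ok2155) and 39331848 to 53486099 in wild-type. After scaling, 1 CPM stood for about 42 to 50 counts in a mutant library and about 33 to 65 in a wild-type library. The spread between libraries was wide: 52 of 15090 tested genes were called at an adjusted p under 0.05, 40 higher and 12 lower. Leaving out any 1 library left between 1 and 23 calls. Wild-type replicate 1 and plp-1(ok2155) replicate 1 stood apart for many flp and nlp genes. For nlp-24 to nlp-34 it was plp-1(ok2155) replicate 3, as described beside each result. These were whole animals, so fewer cells of a type and less RNA per cell cannot be told apart.

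No neuropeptide gene passed the test: 0 of 30 tested flp genes, 0 of 60 tested nlp genes and 0 of 10 tested genes of nlp-24 to nlp-34 were called in edgeR's quasi-likelihood test, beside 0.265% of all tested genes higher, 0.0795% lower and 0.345% in all. At an unadjusted p under 0.05, 0 flp genes, 5 nlp genes (all lower in the mutant) and 1 gene of nlp-24 to nlp-34 (higher) were found, against a background of 3.2% of genes lower and 6.36% higher. DESeq2 called 1 of the 106 genes, nlp-20, beside 3.42% of all genes. The values below are therefore a description of levels and of their spread, except where a test is named. Most fitted values of the flp genes, and of the nlp genes outside nlp-24 to nlp-34, lay below 0. The median log2 fold change, plp-1(ok2155) over wild-type, was -0.45 in flp genes (24 of 30 negative) and -0.38 in those nlp genes (49 of 60 negative). It was -0.03 in all tested genes (52.5% negative). The median in nlp-24 to nlp-34 was 0.66, with 9 of 10 positive.

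**Figure D1:**
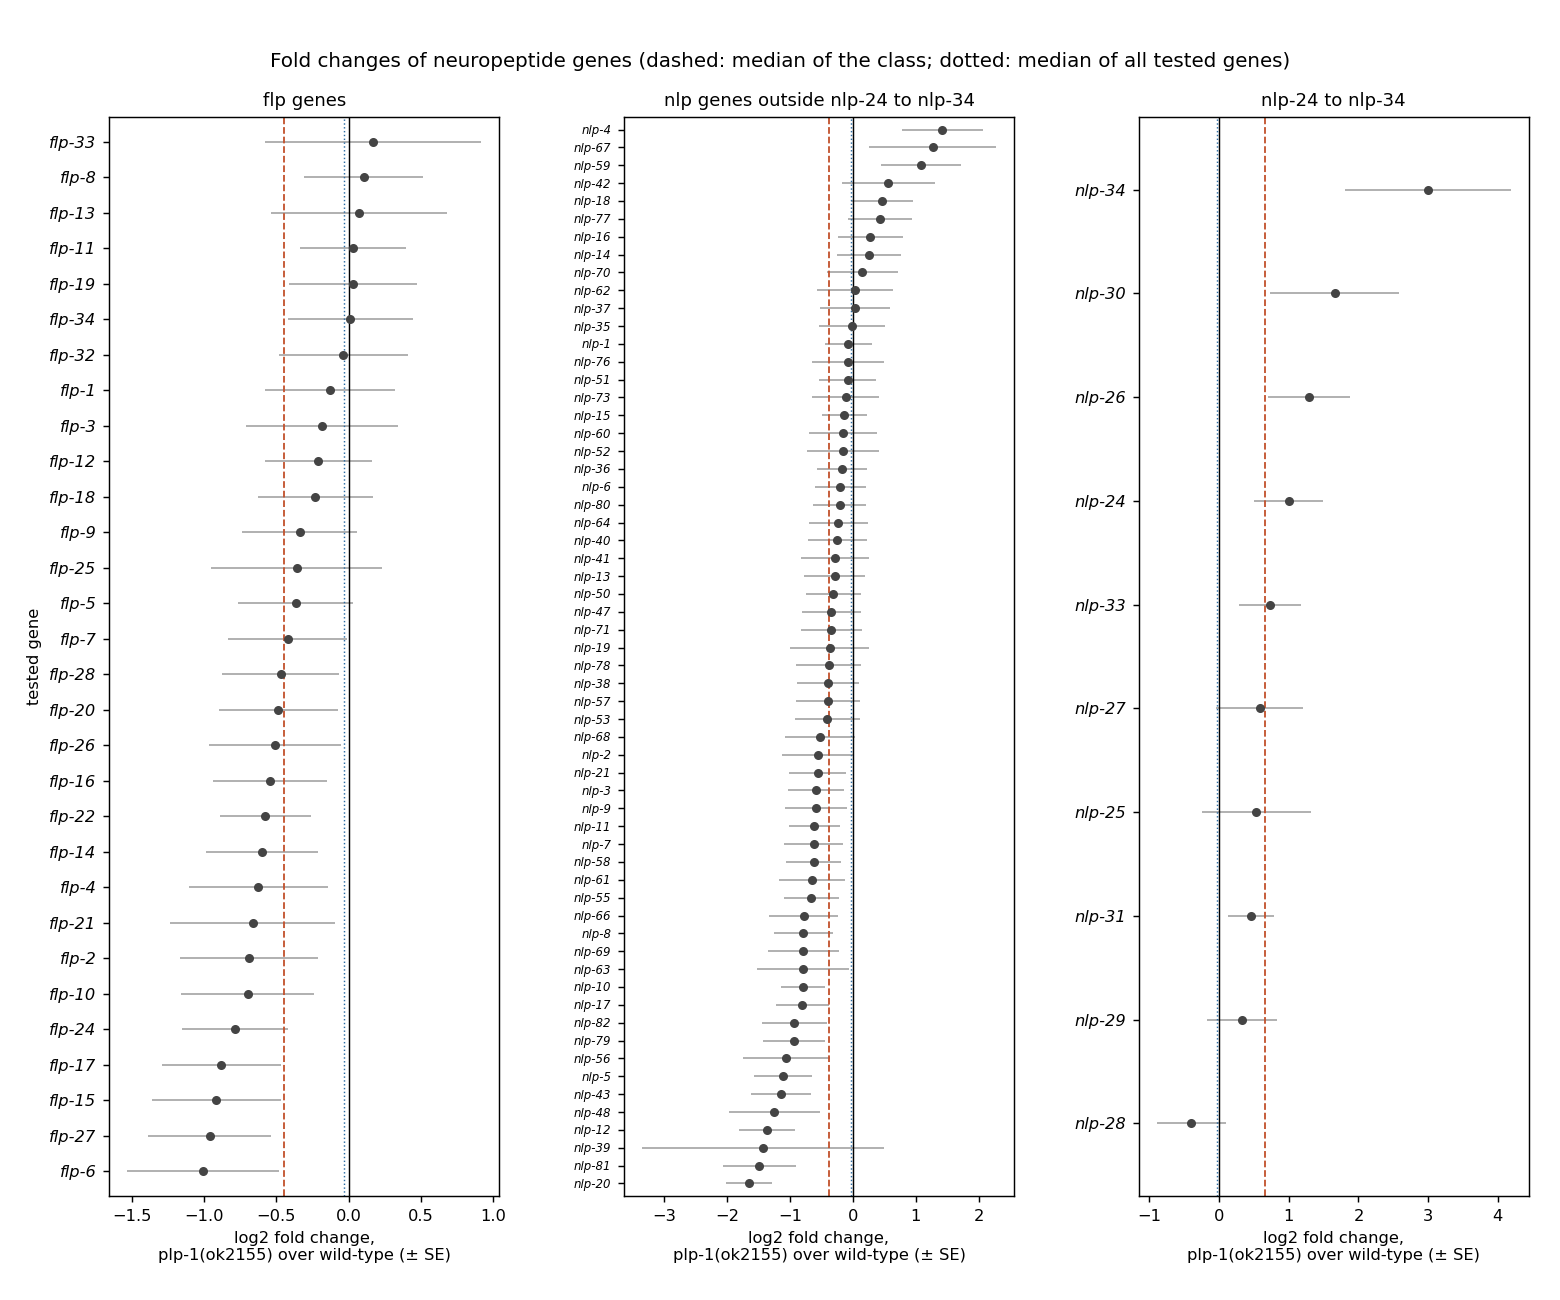
Log2 fold change of each tested gene, plp-1(ok2155) over wild-type, in the 3 classes; points are the fitted values, bars ± 1 SE, dashed lines the class median and dotted lines the median of all tested genes. The flp values run between -1.01 and 0.17, the nlp values between -1.65 and 1.42, and the values of nlp-24 to nlp-34 between -0.40 and 3.00.

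The flp genes are scattered over all chromosomes, with 13 of 31 on X (41.9%), where 13.7% of annotated protein-coding genes lie. By FPKM, which corrects for length, 15 flp genes averaged 10 or more, 15 lay between 1 and 10, and 1, flp-23, was below 1. The highest was flp-28 at 62.8 ± 16.5 FPKM in plp-1(ok2155) and 82.2 ± 23.9 FPKM in wild-type (SD, n = 3 each), and it held 16% of the FPKM of the class. flp-22, flp-6, flp-24 and flp-10 came next. flp-23 had counts in 1 library only and was not tested.

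In 6 of the 30 tested flp genes (20.0%) all mutant libraries lay below all wild-type libraries, and in 0 did they lie above; over all tested genes these shares were 5.49% and 8.75%. The 6 were flp-7, flp-15, flp-17, flp-22, flp-24 and flp-27. flp-24, a sleep-inducing peptide gene of the ALA neuron, had 4.78, 7.48 and 6.53 CPM in plp-1(ok2155), against 9.51, 9.30 and 13.6 CPM in wild-type. Its log2 fold change was -0.78 (SE 0.37, adjusted p = 0.557), and its mutant libraries are all lower although the second of them comes within 2 CPM of the lowest wild-type library. flp-17 and flp-10 encode ligands of the receptor EGL-6, which inhibits egg laying. flp-17 had 2.36, 4.90 and 3.58 CPM in plp-1(ok2155), against 6.38, 5.85 and 7.74 CPM in wild-type (log2 fold change -0.88, SE 0.41, adjusted p = 0.557), with no overlap. flp-10 had 2.69, 3.41 and 5.76 CPM in plp-1(ok2155), against 8.53, 4.27 and 6.45 CPM in wild-type (-0.70, SE 0.46, adjusted p = 0.692), and there the groups overlap through plp-1(ok2155) replicate 3.

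flp-27, which had the smallest p of its class, gave 1.78, 2.08 and 2.57 CPM in plp-1(ok2155), against 5.26, 2.85 and 4.41 CPM in wild-type. The groups did not overlap, but the log2 fold change of -0.96 (SE 0.42) had an adjusted p of 0.526. flp-15, a ligand of the receptor NPR-3, had 1.24, 1.83 and 1.58 CPM in plp-1(ok2155), against 4.07, 2.09 and 2.61 CPM in wild-type (-0.91, SE 0.45, adjusted p = 0.578). flp-22 had 8.58, 10.3 and 11.9 CPM in plp-1(ok2155), against 15.6, 14.6 and 15.5 CPM in wild-type (-0.58, SE 0.31, adjusted p = 0.623). Its wild-type libraries lie close together and all above the mutant ones. flp-6 had the most negative value, -1.01 (SE 0.52, adjusted p = 0.606), with 9.89, 13.2 and 21.6 CPM in plp-1(ok2155) and 12, 48.1 and 29.6 CPM in wild-type. Here the first wild-type library sits among the mutant ones, unlike in most flp genes. flp-14 had 6.42, 8.42 and 7.59 CPM in plp-1(ok2155), against 15.8, 10.7 and 7.56 CPM in wild-type, and wild-type replicate 3 lay within the mutant range (-0.60, SE 0.39, adjusted p = 0.683).

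flp-1, whose peptides act in locomotion, had 5.05, 10.5 and 5.72 CPM in plp-1(ok2155), against 9.55, 8.86 and 4.89 CPM in wild-type (-0.13, SE 0.45, adjusted p = 0.954). flp-18 and flp-21 encode ligands of NPR-1, a receptor that sets social feeding. flp-18 had 5.16, 7.46 and 6.80 CPM in plp-1(ok2155), against 10.7, 6.02 and 6.03 CPM in wild-type (-0.23, SE 0.40, adjusted p = 0.889), and without wild-type replicate 1 its value was 0.10. flp-21 was low, with 0.356, 0.655 and 0.264 CPM in plp-1(ok2155) and 0.913, 0.571 and 0.540 CPM in wild-type (-0.66, SE 0.57, adjusted p = 0.768). The sleep peptide genes flp-11, of the RIS neuron, and flp-13, of ALA, were at 0.03 (SE 0.36, adjusted p = 0.988) and 0.07 (SE 0.61, adjusted p = 0.983), and with flp-8, flp-19, flp-33 and flp-34 they were the 6 flp genes with a value above 0. The largest of these was 0.17, in flp-33.

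Summed over the class, flp genes had 98.3, 134 and 137 CPM in plp-1(ok2155), against 175, 179 and 173 CPM in wild-type, which is 123 ± 21.6 against 176 ± 2.7 CPM (SD, n = 3 each), a ratio of 0.70. The sums do not overlap, and the mutant sums spread more. On the mean of log2 CPM, where every gene has equal weight, the mutant libraries were at 1.19, 1.68 and 1.53, against 2.07, 1.73 and 1.78 in wild-type, so the second mutant library came close to the second wild-type one. Wild-type replicate 1 was the highest of the 6 libraries for 18 of 30 flp genes (60.0%, against 17.9% of all tested genes) and plp-1(ok2155) replicate 1 was the lowest for 19 of 30 (against 16.7%). Without plp-1(ok2155) replicate 1 the class median was -0.31, with 23 of 30 values negative. Without wild-type replicate 1 it was -0.29, with 20 of 30 values negative, and without plp-1(ok2155) replicate 3 it was -0.55. Pan-neuronal marker genes did not show the same balance: 8 of 12 had a positive log2 fold change, 0 of 12 were called, none was at 0, and their summed level was 352 to 425 CPM in plp-1(ok2155) and 325 to 374 CPM in wild-type. Without plp-1(ok2155) replicate 3 the neuronal markers had a median of -0.14, with 7 of 12 negative. In 2 of the 12 markers (16.7%) all mutant libraries lay below all wild-type libraries, and in 0 did they lie above. Over all tested genes these shares were 5.49% and 8.75%. Taken relative to the mean log2 CPM of these markers in the same library, flp genes stood at -2.33, -1.93 and -2.18 in plp-1(ok2155), against -1.68, -1.75 and -1.89 in wild-type, without overlap. Markers of some other tissues differed more between the groups. All 27 tested major sperm protein genes were higher in plp-1(ok2155) at an unadjusted p under 0.05 (median 3.09, 0 called by edgeR). Their summed levels were 59.4 to 211 CPM in plp-1(ok2155) and 8.16 to 32.1 CPM in wild-type. DESeq2 called 26 of these sperm genes, the fit with the replicate number as a block called 2, and 20 of the 30 then tested were called with wild-type replicate 1 and plp-1(ok2155) replicate 3 left out. Oocyte and germline markers were positive in 9 of 9 (median 0.48, 0 called) and intestine markers negative in 5 of 5 (median -0.66, 0 called). Body muscle markers were positive in 3 of 5 (median 0.13) and epidermis markers in 6 of 10 (median 0.12), with 0 called by edgeR. The part of such a different mix of stages or tissues in the flp values was not tested.

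**Figure D2:**
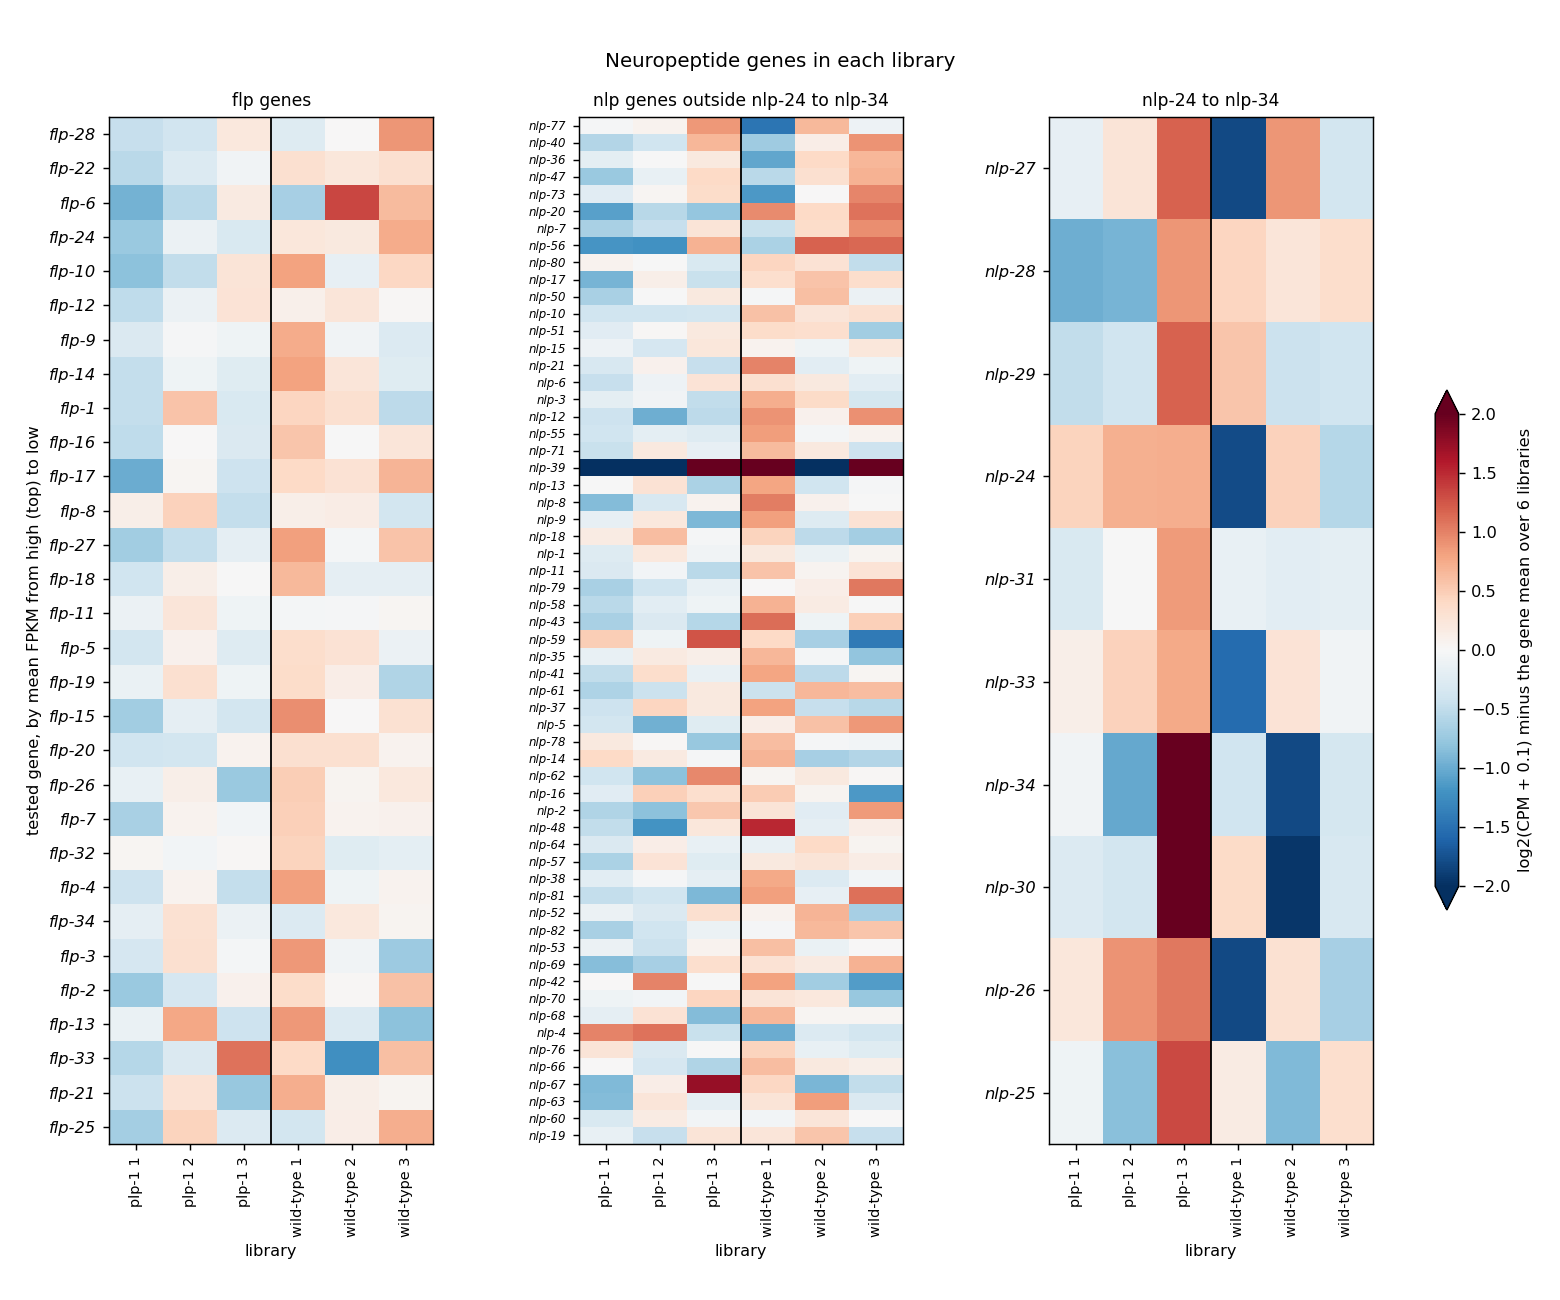
Level of each tested gene in each library as log2(CPM + 0.1) minus the mean of that gene over the 6 libraries; rows are ordered by mean FPKM, plp-1 stands for plp-1(ok2155), the black line parts mutant from wild-type libraries, and colours are capped at 2 in either direction. In the flp panel blue gathers in plp-1 1 and red in wild-type 1, which is the highest library in 18 of 30 rows, while in the panel of nlp-24 to nlp-34 plp-1 3 is the highest in 10 of 10 rows.

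Outside nlp-24 to nlp-34, 18 of 64 nlp genes lie on X (28.1%), 17 averaged 10 FPKM or more, 40 between 1 and 10, and 7 below 1. The class is dominated by a pair of genes, nlp-77 and nlp-40, which together held 61.3% of its FPKM. nlp-77, listed as srlf-1 in the name table, had 780 ± 272 FPKM in plp-1(ok2155) and 542 ± 317 FPKM in wild-type (SD, n = 3 each). nlp-40, an intestinal peptide gene that triggers the defecation motor step, had 481 ± 237 FPKM in plp-1(ok2155) and 531 ± 202 FPKM in wild-type. nlp-36, nlp-47 and nlp-73 followed. nlp-22, nlp-23, nlp-45 and nlp-46 had too few counts to be tested.

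These abundant genes varied within groups as much as between them. nlp-40 had 123, 139 and 293 CPM in plp-1(ok2155), against 113, 203 and 342 CPM in wild-type (log2 fold change -0.25, SE 0.47, adjusted p = 0.904). nlp-77 had 282, 299 and 521 CPM in plp-1(ok2155), against 104.1, 446 and 268 CPM in wild-type (0.43, SE 0.50, adjusted p = 0.831). In both genes wild-type replicate 1 was the lowest library, the reverse of most flp genes. nlp-36 had 64.9, 74.5 and 85.3 CPM in plp-1(ok2155), against 36.3, 98.3 and 118 CPM in wild-type (-0.17, SE 0.40, adjusted p = 0.927). nlp-47, which encodes a peptide related to gonadotropin-releasing hormone, had 4.98, 7.58 and 11.1 CPM in plp-1(ok2155) and 5.73, 10.5 and 13.7 CPM in wild-type (-0.34, SE 0.46, adjusted p = 0.855). nlp-73 was at -0.11 (SE 0.53, adjusted p = 0.968). The summed level of the class, which these genes set, was 746 ± 254 CPM in plp-1(ok2155) and 743 ± 273 CPM in wild-type (SD, n = 3 each), a ratio of 1.00. Adult yolk protein genes, whose fold changes were negative in 6 of 6 with 0 called, had summed levels of 44681 to 94477 CPM in plp-1(ok2155) and 37125 to 159710 CPM in wild-type. That sum was highest among the mutant libraries in plp-1(ok2155) replicate 3 and lowest of all in wild-type replicate 1, which was the lowest library for 5 of the 6 genes. Their part in these values was not tested.

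nlp-20 had the smallest p of all 106 genes. It had 3.60, 5.24 and 4.49 CPM in plp-1(ok2155), against 15, 10.3 and 16.6 CPM in wild-type. All mutant libraries were below 6 CPM and all wild-type ones above 10 CPM. The log2 fold change was -1.65 (SE 0.37), with an unadjusted p of 0.00194, an adjusted p of 0.127, which became 0.0643 in the fit with the replicate block. DESeq2 called it lower at an adjusted p of 0.00059, beside 0.612% of genes that DESeq2 called lower.

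nlp-20 is also the neuropeptide gene closest to the mutated locus. It lies on chromosome IV from 7642054 to 7643071 on the minus strand (WBcel235, 3 exons), 7401 bases from plp-1, which runs from 7633360 to 7634653 on the plus strand, with 2 annotated coding genes between them. Those genes, warf-1 (listed as arf-1.1 in the table) and the neprilysin-family peptidase gene nep-16, were at -0.85 (SE 0.77, adjusted p = 0.780) and -1.04 (SE 1.01, adjusted p = 0.795), and hmg-5, on the other side of nlp-20, was at -0.28 (SE 0.25, adjusted p = 0.776). They were looked up after the value of nlp-20 was seen. warf-1 had 0.311, 0.814 and 2.81 CPM in plp-1(ok2155), against 1.49, 2.37 and 3.24 CPM in wild-type, and nep-16 had 0.578, 0.318 and 0.288 CPM in plp-1(ok2155), against 2.07, 0.127 and 0.210 CPM in wild-type. Without wild-type replicate 1, nep-16 stood at 1.22, and without plp-1(ok2155) replicate 3, warf-1 stood at -2.12. Both overlap between groups. The next closest neuropeptide genes, flp-13 at 62279 bases and flp-10 at 234254 bases, were at 0.07 and -0.70. Loss of plp-1 activity and the change in sequence at its locus, with whatever is linked to it in the strain, cannot be told apart for nlp-20.

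In 13 of the 60 tested nlp genes (21.7%) the mutant libraries all lay below the wild-type ones and in 0 did they lie above, against 5.49% and 8.75% of all tested genes. Besides nlp-20, 4 of these had an unadjusted p under 0.05: nlp-12, nlp-81, nlp-5 and nlp-43. nlp-12, a cholecystokinin-like peptide gene of the stretch-sensing neuron DVA that modulates locomotion, had 1.53, 1.01 and 1.42 CPM in plp-1(ok2155), against 3.95, 2.22 and 4.02 CPM in wild-type. Its log2 fold change was -1.36 (SE 0.45, adjusted p = 0.337). nlp-5 had 1.24, 0.794 and 1.37 CPM in plp-1(ok2155), against 1.80, 2.49 and 3.06 CPM in wild-type (-1.11, SE 0.46, adjusted p = 0.499). nlp-43 had 1.07, 1.39 and 1.13 CPM in plp-1(ok2155), against 3.85, 1.61 and 2.43 CPM in wild-type (-1.14, SE 0.48, adjusted p = 0.507). nlp-81 is low, with 0.356, 0.377 and 0.240 CPM in plp-1(ok2155) and 1.02, 0.465 and 1.26 CPM in wild-type (-1.48, SE 0.58, adjusted p = 0.455). For nlp-43 and nlp-81 the gap between groups is small at wild-type replicate 2. nlp-10 had 4.09, 4.11 and 4.20 CPM in plp-1(ok2155), against 8.24, 6.47 and 6.81 CPM in wild-type (-0.79, SE 0.35, adjusted p = 0.523), and its mutant libraries were nearly equal. nlp-17 had 1.91, 4.05 and 2.74 CPM in plp-1(ok2155), against 4.77, 5.62 and 4.8 CPM in wild-type (-0.80, SE 0.42, adjusted p = 0.606), and shares 30 exonic bases with seld-1 on the opposite strand.

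Some nlp genes stood on the other side, among them nlp-4 and nlp-59. nlp-4 had the highest value, with 1.16, 1.23 and 0.360 CPM in plp-1(ok2155), against 0.217, 0.423 and 0.390 CPM in wild-type (1.42, SE 0.64, adjusted p = 0.542). plp-1(ok2155) replicate 3 lies within the wild-type range. nlp-59 had 1.96, 1.27 and 3.41 CPM in plp-1(ok2155) and 1.83, 0.824 and 0.450 CPM in wild-type (1.08, SE 0.64, adjusted p = 0.656). The egg-laying genes below were negative again. nlp-7, which slows egg laying, had 5.09, 5.78 and 9.65 CPM in plp-1(ok2155) and 5.90, 10.3 and 15.4 CPM in wild-type (-0.62, SE 0.46, adjusted p = 0.730). nlp-3, which promotes egg laying, was at -0.58 (SE 0.44, adjusted p = 0.730). nlp-8, a sleep peptide gene of ALA, was at -0.78 (SE 0.47, adjusted p = 0.667), but without wild-type replicate 1 its value was -0.37. nlp-37, listed as pdf-2 in the name table and coding for a pigment-dispersing factor peptide, was at 0.03 (SE 0.56, adjusted p = 0.988).

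nlp-39 did not follow the groups. Its counts were 0, 0 and 143 in plp-1(ok2155), against 353, 2 and 123 in wild-type, so that 3 libraries, 1 mutant and 2 wild-type, held nearly all of them. It is a single-exon gene on chromosome I from 12461656 to 12461895. Its log2 fold change of -1.43 (SE 1.92, adjusted p = 0.852) has the widest error of the class.

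As in the flp class, wild-type replicate 1 was the highest library for more nlp genes than any other, 27 of 60 (45%). The library most often lowest was plp-1(ok2155) replicate 1, for 22 of 60, against 16.7% of all tested genes. The mean log2 CPM of the nlp class was 0.52, 0.75 and 0.97 in plp-1(ok2155), against 1.3, 0.98 and 1.03 in wild-type, with the highest mutant value just under the lowest wild-type one. The median log2 fold change was -0.32 without plp-1(ok2155) replicate 1 (46 of 62 negative). It was -0.32 without wild-type replicate 1 (42 of 60 negative) and -0.53 without plp-1(ok2155) replicate 3 (54 of 62). With wild-type replicate 1 and plp-1(ok2155) replicate 3 both left out, it was -0.33 for flp and -0.34 for nlp genes. In that comparison of 2 against 2 libraries, chosen after the values were seen, 5.37% of all genes were called, 3.21% higher and 2.16% lower. Among the flp and nlp genes they were flp-6 at -1.76 (adjusted p = 0.0401), nlp-56 at -2.40 (adjusted p = 0.0233) and nlp-28 at -1.27 (adjusted p = 0.0378), each called lower. Split by chromosome, flp and nlp genes together had a median of -0.30 on X (28 tested) and -0.53 on autosomes (62 tested), and 2 (7.14%) and 17 (27.4%) of them had mutant libraries all below wild-type. Over all tested protein-coding genes that share was 5.12% on X and 5.39% on autosomes, and the median was -0.15 on X and -0.01 on autosomes.

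Each of the 11 genes nlp-24 to nlp-34 was highest in the same mutant library, plp-1(ok2155) replicate 3. 10 of the 11 lie on chromosome V, and 6 of them sit side by side there with no other coding gene between them: nlp-34 on the minus strand, then nlp-31, nlp-30, nlp-29, nlp-28 and nlp-27 on the plus strand, from 3978825 to 3989770 (WBcel235), each with 2 exons. nlp-33, nlp-24, nlp-25 and nlp-26 lie elsewhere on V, nlp-25 and nlp-26 on either side of grsp-1, and nlp-32 is on chromosome III. As nlp-28 to nlp-31 are near-copies, how reads were shared among them is uncertain. The group is abundant for its size: 9 of the 11 averaged 10 FPKM or more, and nlp-27, the highest, had 398 ± 194 FPKM in plp-1(ok2155) and 248 ± 199 FPKM in wild-type (SD, n = 3 each).

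plp-1(ok2155) replicate 3 was the highest of the 6 libraries for each of the 10 tested genes and also for nlp-32, against 14.6% of all tested genes. nlp-34 had 2.13, 1.05 and 28.7 CPM in plp-1(ok2155), against 1.67, 0.571 and 1.74 CPM in wild-type. Its log2 fold change was 3.00 (SE 1.19, adjusted p = 0.470), and 0.17 without the third mutant library. nlp-30 had 2.78, 2.6 and 19.8 CPM in plp-1(ok2155), against 4.44, 0.803 and 2.7 CPM in wild-type (1.66, SE 0.92, adjusted p = 0.629), and -0.09 without that library. nlp-29, the gene most used as a reporter of epidermal infection and wounding, had 28.9, 30.7 and 91.5 CPM in plp-1(ok2155), against 59.4, 29.9 and 30.6 CPM in wild-type. Its first and second mutant libraries lie near the lower wild-type ones, its log2 fold change was 0.33 (SE 0.50, adjusted p = 0.869), and it was -0.52 without the third mutant library. nlp-31 had 30.03, 36.9 and 67.1 CPM in plp-1(ok2155), against 33.4, 31.9 and 32.2 CPM in wild-type (0.46, SE 0.33, adjusted p = 0.722). Its wild-type libraries were nearly equal. nlp-27 had 55.3, 73.5 and 140 CPM in plp-1(ok2155), against 17.7, 114 and 48.0 CPM in wild-type (0.58, SE 0.62, adjusted p = 0.813).

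nlp-28 was the exception in direction. It had 22.2, 23.1 and 81.4 CPM in plp-1(ok2155), against 58.9, 52.0 and 56.1 CPM in wild-type (-0.40, SE 0.50, adjusted p = 0.840). Without the third mutant library it stood at -1.38. Summed over the cluster of 6 genes, the level was 141, 168 and 429 CPM in plp-1(ok2155), against 175, 229 and 171 CPM in wild-type, so that 2 mutant libraries were below and 1 above all wild-type libraries.

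**Figure D3:**
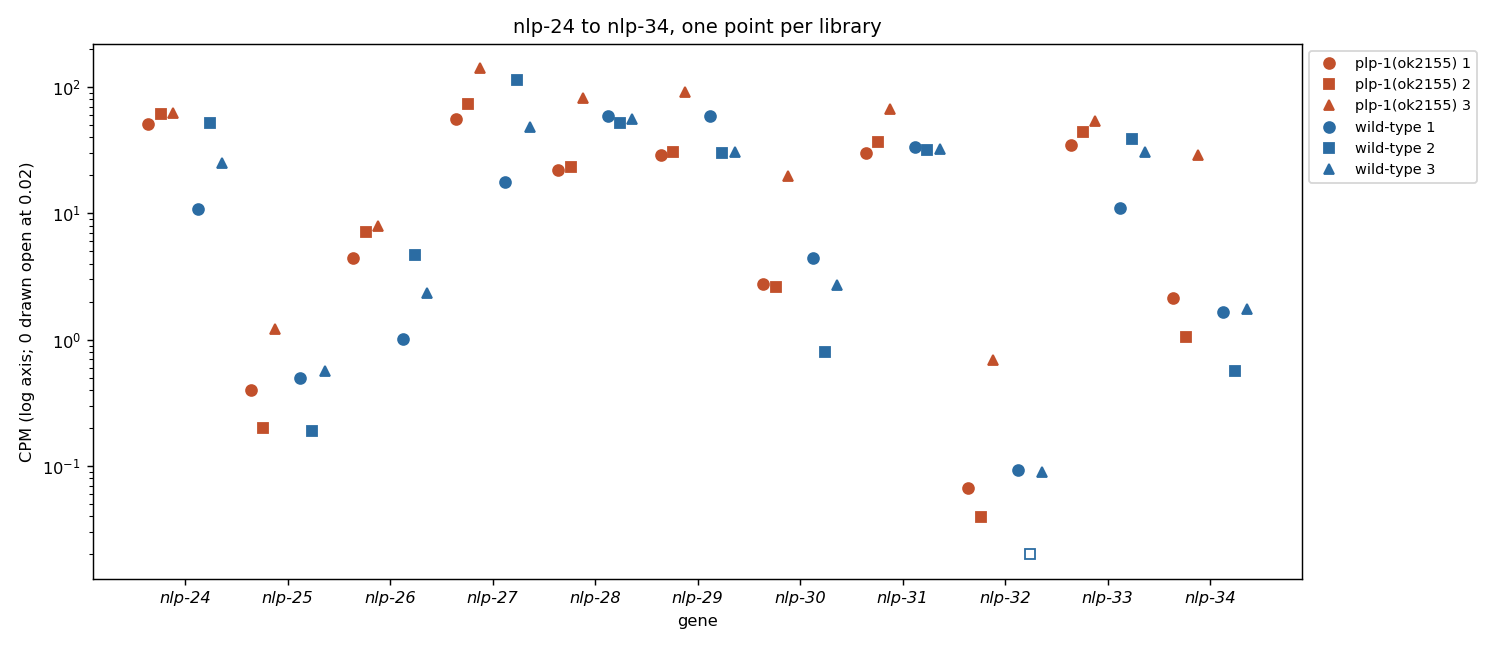
CPM on a log axis of each gene of nlp-24 to nlp-34; each point is 1 library, red for plp-1(ok2155) and blue for wild-type, with the marker shape giving the replicate number, and the open square is nlp-32 at 0 CPM in wild-type replicate 2. The red triangle, plp-1(ok2155) replicate 3, is the highest point of each gene, from 0.696 CPM in nlp-32 to 140 CPM in nlp-27.

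Away from the cluster, nlp-24, nlp-26 and nlp-33 had a different layout, with low values in wild-type replicate 1. nlp-24 had 51.0, 61.2 and 61.8 CPM in plp-1(ok2155), against 10.7, 51.5 and 24.9 CPM in wild-type (1.00, SE 0.50, adjusted p = 0.594). nlp-26 had 4.45, 7.17 and 7.92 CPM in plp-1(ok2155), against 1.01, 4.67 and 2.34 CPM in wild-type (1.29, SE 0.59, adjusted p = 0.550). nlp-33 had 34.5, 44.3 and 54.2 CPM in plp-1(ok2155), against 10.9, 38.9 and 30.3 CPM in wild-type (0.73, SE 0.45, adjusted p = 0.670). In each of the 3 genes the groups overlap at wild-type replicate 2, and the fold changes stayed positive, at 0.90, 1.07 and 0.51, without the third mutant library. nlp-24 and nlp-26 share 24 and 29 exonic bases with coding genes on the opposite strand. nlp-25 had 0.400, 0.198 and 1.22 CPM in plp-1(ok2155) and 0.495, 0.190 and 0.570 CPM in wild-type (0.53, SE 0.78, adjusted p = 0.866), and nlp-32 had 0.0667, 0.0397 and 0.696 CPM in plp-1(ok2155) and 0.0929, 0 and 0.0900 CPM in wild-type and was not tested.

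The median of the group, 0.66 over all libraries, was 0.01 without plp-1(ok2155) replicate 3, with 5 of 10 values negative, and 0.64 without wild-type replicate 1. The mean log2 CPM was 3.44, 3.46 and 5.03 in plp-1(ok2155), against 3.00, 3.26 and 3.37 in wild-type. The summed level was 356 ± 174 CPM in plp-1(ok2155) and 251 ± 65.7 CPM in wild-type (SD, n = 3 each), with the spread set by the third mutant library. The caenacin genes, a related family of epidermal antimicrobial peptides, had the same library highest in 6 of 7 tested members, and their summed level was 44.2, 50.2 and 182 CPM in plp-1(ok2155), against 55.2, 59.7 and 53.6 CPM in wild-type. 0 of the 7 were called. cnc-2 had 3.80, 3.12 and 33.3 CPM in plp-1(ok2155), against 0.898, 1.75 and 1.47 CPM in wild-type (3.29, SE 0.95, adjusted p = 0.245), and its groups did not overlap. It was the 1 gene of the 7 (14.3%) with all mutant libraries higher, against 8.75% of all tested genes. cnc-11 was the 1 negative member, with 0.111, 0.0794 and 2.31 CPM in plp-1(ok2155) and 13, 0.190 and 1.68 CPM in wild-type.

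Markers of the epidermis moved with plp-1(ok2155) replicate 3 in part: it was the highest library for 5 of 10 and the lowest for 2. Their log2 fold changes ran from -1.29 to 3.85, with 4 negative. 6 of 10 had a positive fold change, 0 of 10 were called, 3 (dpy-4, dpy-5 and rol-6) were higher at an unadjusted p under 0.05 and were called higher by DESeq2 and with the replicate number as a block, none was at 0, and their summed level was 719 to 1045 CPM in plp-1(ok2155) and 468 to 1259 CPM in wild-type. The cuticle genes dpy-5, dpy-4 and col-10 were at 38.2, 43.2 and 59.5 CPM in plp-1(ok2155) replicate 3 and at most at 13.6 CPM in the other mutant libraries, and between 0.403 and 15.4 CPM in wild-type, while the epidermal transcription factor genes elt-3 and lin-26 were at 0.12 each on the log2 scale between groups. The part of stage or epidermal content in the values of nlp-24 to nlp-34 was not tested.

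The p38 MAP kinase gene pmk-1, which acts upstream of nlp-29, separated the groups in every library. It had 53.0, 56.5 and 47.8 CPM in plp-1(ok2155), against 21.5, 19 and 21.5 CPM in wild-type. Its log2 fold change of 1.34 (SE 0.24) had an adjusted p of 0.0860, which became 0.0273 when the replicate number entered as a block; that fit called 1.03% of genes higher, 0.424% lower and 1.45% in all. DESeq2 called it too (adjusted p = 0.000275), beside 2.81% of genes it called higher. The median of all 21 genes of the epidermal immune regulator list was -0.05, with 9 positive and 0 called. Of the 21, pmk-1 was the 1 gene (4.76%) with all mutant libraries higher, against 8.75% of all tested genes. atf-7, a transcription factor gene of the same pathway, was at 0.26 (SE 0.23, adjusted p = 0.770), dcar-1, a receptor gene, at -0.54 (SE 0.45, adjusted p = 0.757), and sma-2, a SMAD gene of the TGF-beta pathway, at -0.63 (SE 0.47, adjusted p = 0.730). In plp-1(ok2155) replicate 3, where nlp-24 to nlp-34 were highest, pmk-1 had 47.8 CPM, its lowest value among the mutant libraries. The part of pmk-1 in the values of nlp-24 to nlp-34 was not tested.

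Over 7 lists combined (precursor processing, dense core vesicles, peptide receptors, peptidases, other peptide genes, caenacins and the epidermal immune regulators that include pmk-1), 0 of 154 tested genes were called by edgeR. Without adjustment, 6 higher ones (3.9%) and 3 lower ones (1.95%) passed 0.05, beside 6.36% and 3.2% of all tested genes, and pmk-1 was the 1 gene called with DESeq2. Of the 11 precursor-processing genes, 9 had a negative fold change, with a median of -0.45, the same as that of the flp genes. In 3 of the 11 (27.3%) all mutant libraries lay below all wild-type libraries and in 0 above, against 5.49% and 8.75% of all tested genes. egl-3, the main neuronal proprotein convertase, had 14.6, 13 and 9.25 CPM in plp-1(ok2155), against 27.6, 14.6 and 21.1 CPM in wild-type (-0.78, SE 0.36, adjusted p = 0.555). egl-21, a carboxypeptidase E that trims the cut peptides, had 26.8, 25.7 and 29.3 CPM in plp-1(ok2155), against 42.7, 29.3 and 39.9 CPM in wild-type (-0.45, SE 0.26, adjusted p = 0.651). pgal-1, an amidating enzyme gene, was at -0.63 (SE 0.33, adjusted p = 0.614), and kpc-1, a furin-like convertase gene, at -0.87 (SE 0.50, adjusted p = 0.641). Wild-type replicate 1 was again the highest library for 7 of the 11. Without it the list's median was -0.28.

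Of 12 genes of dense core vesicle formation and release, 10 had a negative value, with a median of -0.13. Wild-type replicate 1 was the highest library for 7 of the 12. Without it the median was -0.10, with 7 of 12 negative. Without plp-1(ok2155) replicate 3 the median was -0.23, with 9 of 12 negative. ida-1, a vesicle membrane protein gene, was at -0.89 (SE 0.54, adjusted p = 0.668) and cccp-1, which acts in vesicle maturation, at -0.80 (SE 0.38, adjusted p = 0.568), while unc-31, the release factor CAPS, was at -0.11 (adjusted p = 0.966). cccp-1 had 4.93, 7.30 and 10.7 CPM in plp-1(ok2155), against 12.4, 12.9 and 14.6 CPM in wild-type, without overlap. It was the 1 gene of the 12 (8.33%) with all mutant libraries lower, against 5.49% of all tested genes. The 5 other peptide genes, among them pdf-1 at -0.13 (adjusted p = 0.953) and snet-1 at -0.33 (SE 0.43, adjusted p = 0.849), had a median of -0.20. Wild-type replicate 1 was the highest library for 5 of 5 of them, and without it the median was 0.23, with 2 of 5 negative.

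**Figure D4:**
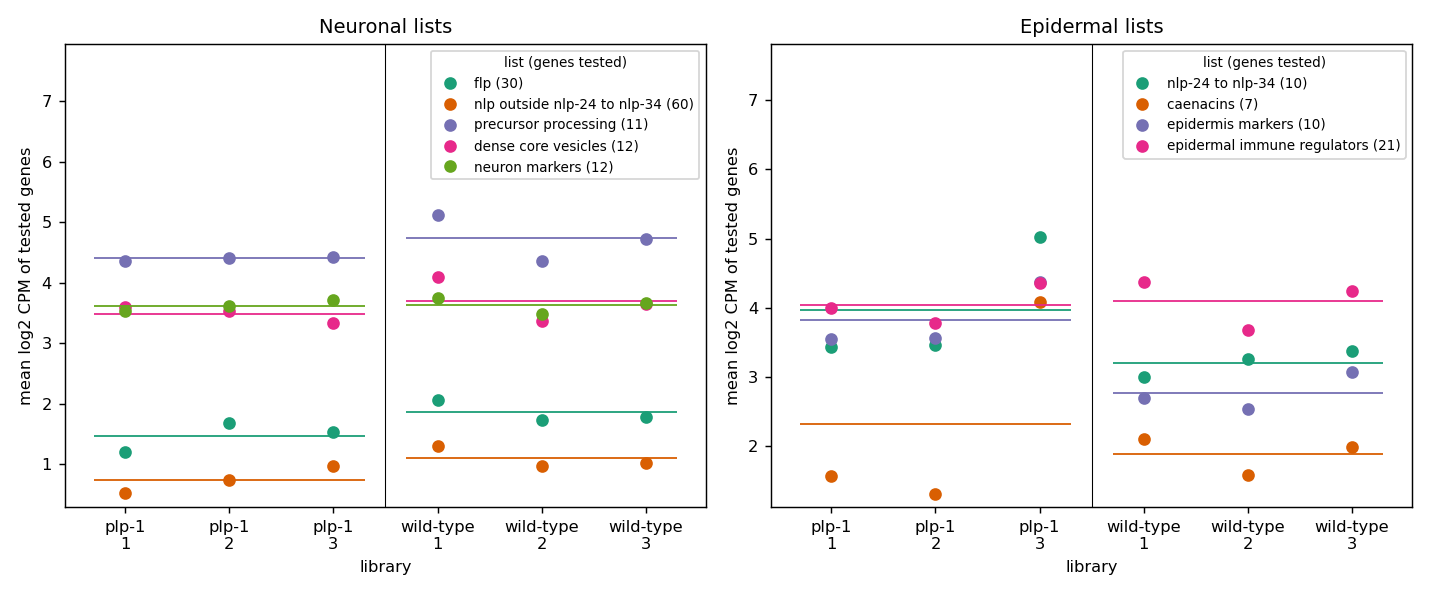
Mean log2 CPM over the tested genes of each list in each library, with plp-1 standing for plp-1(ok2155); lines are the means of 3 libraries and legends give the number of genes tested. The flp and nlp points are lowest in plp-1 1, at 1.19 and 0.52, and highest in wild-type 1, at 2.07 and 1.3, the neuron markers stay between 3.47 and 3.75, and nlp-24 to nlp-34 and the caenacins stand out in plp-1 3, at 5.03 and 4.09.

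The receptors were mostly low and mixed in direction. 76 of 98 receptor genes could be tested, with 44 negative, a median of -0.12 and 0 called. dmsr-3 had 0.422, 0.318 and 0.456 CPM in plp-1(ok2155), against 1.04, 1.33 and 1.20 CPM in wild-type (-1.57, SE 0.48, adjusted p = 0.272), and npr-26 had 0, 0.179 and 0.192 CPM in plp-1(ok2155), against 0.294, 0.867 and 1.26 CPM in wild-type (-2.67, SE 1.03, adjusted p = 0.448). On the other side, npr-10 was at 1.16 (SE 0.50, adjusted p = 0.523) and frpr-13 at 1.06 (SE 0.44, adjusted p = 0.503). Receptors of peptides named above were looked up after those values were seen. egl-6, the gene of the receptor for flp-10 and flp-17 peptides, had 14.4, 14.9 and 10.7 CPM in plp-1(ok2155) and 13.8, 13.8 and 9.71 CPM in wild-type (0.10, SE 0.33, adjusted p = 0.950). npr-3 was at 0.12 (SE 0.56, adjusted p = 0.967), the nlp-12 receptor gene ckr-2 at 0.23 (SE 0.55, adjusted p = 0.927), and npr-1 had too few counts for a test. pdfr-1, the receptor gene for pigment-dispersing factor peptides, had 11.2, 9.61 and 10.9 CPM in plp-1(ok2155), against 7.86, 5.64 and 4.53 CPM in wild-type, which do not overlap (0.81, SE 0.36, adjusted p = 0.535). Of the 76 tested receptor genes, 5 (6.58%) were without overlap higher and 3 (3.95%) lower, against 8.75% and 5.49% of all tested genes.

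Among peptidases that can break peptides down, 22 of 33 were tested, with 12 positive, a median of 0.03 and 0 called. dpf-2, of the dipeptidyl peptidase family, had 46.7, 44.1 and 78.2 CPM in plp-1(ok2155), against 71.1, 112 and 179 CPM in wild-type (-1.10, SE 0.38, adjusted p = 0.377). dpf-6 had 8.85, 7.26 and 17.5 CPM in plp-1(ok2155), against 6.83, 2.92 and 1.92 CPM in wild-type (1.52, SE 0.58, adjusted p = 0.443). For dpf-6 the groups are apart, whereas for dpf-2 the third mutant library lies above the first wild-type one. Of the 22 tested peptidase genes, 3 (13.6%) were without overlap higher and 0 lower, against 8.75% and 5.49% of all tested genes.

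The transcript table gave a second count of the same genes. Of 130 transcripts, 114 could be tested, 88 had a negative log2 fold change, 0 were called (0.0584% of all 20551 tested transcripts were) and 6 had an unadjusted p under 0.05, against a background of 7.63%. 14 genes had at least 2 tested transcripts, and in 6 of these (flp-8, flp-11, flp-34, nlp-6, nlp-7 and nlp-14) the signs differed. nlp-14 showed the widest gap. Its transcript with 540 coding bases had 69, 37 and 36 counts in plp-1(ok2155) and 4, 30 and 24 in wild-type (1.15, SE 0.85, adjusted p = 0.793), and the one with 675 coding bases had 69, 95 and 58 counts in plp-1(ok2155) and 237, 37 and 26 in wild-type (-0.21, SE 0.73, adjusted p = 0.970). In wild-type replicate 1 nearly all nlp-14 counts fell on the longer transcript. In flp-8 and nlp-7 the minor transcript held 10 to 28 counts in each library, so its sign carries little weight. For the single transcript of nlp-20 the counts were 162, 264 and 187 in plp-1(ok2155), against 970, 488 and 553 in wild-type (-1.68, SE 0.35, adjusted p = 0.206).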

How the data were processed

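RNA of 6 libraries was quantified by the authors, who deposited estimated counts and FPKM per gene and per transcript. Per the submitters' processing notes, which give no roles, StringTie 1.3.4d and DESeq2 were used besides the aligners Bowtie2 2.3.4.1 and HISAT2 2.1.0, with Trimmomatic 0.38 and FastQC 0.11.7. The sources used here do not say if counting was strand-specific. The deposited estimated counts were whole, rounded up from the authors' estimates, and the deposited FPKM refers to coding length. The lengths in the deposited transcript table were used only to check this.

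Genes without a symbol (24 entries, 0.00236% to 0.0246% of counts) were left out. edgeR 4.0.16 in R 4.3.3 fitted all genes kept by filterByExpr (quasi-likelihood, TMM scaling, group as the single term), with Benjamini-Hochberg adjustment over all of them and calls at an adjusted p under 0.05. CPM uses TMM-scaled library sizes. The procedure was tested on simulated data. DESeq2 1.42.0 and other settings were alternatives. Coordinates are from the Ensembl annotation of WBcel235; all 106 genes were found in it, 100 with the same symbol in the name table. 15 share exonic bases with another coding gene, 14 of them on the opposite strand.

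The members and gene lists were chosen with earlier results of these data known. Genes named are all of nlp-24 to nlp-34; per class the 8 smallest p, 5 highest mean FPKM and 3 largest values in each direction among genes with at least 2 CPM in the higher group; flp-1, flp-18, flp-21, nlp-12 and nlp-40; up to 4 smallest p per list; and genes whose transcripts differ in sign. These rules also pick nlp-18, ric-19, unc-108, nep-8, nep-24, lury-1, capa-1, ntc-1, cnc-7 and cnc-8, whose values are not given above. They are counted among the named genes below. Other genes named in the text were chosen after their values were seen. The labels call the samples biological replicates and do not say that cultures were separate, so p-values measure the spread between these libraries, which may be technical. Same-numbered mutant and wild-type libraries deviated together from their group means (r = 0.28, 0.21 and 0.36, against -0.34 to -0.04 for other pairs). The main test used the group as the single term, so its SE and p-values ignore this pairing. The fit with the replicate number as a block, an alternative, takes it into account.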

Additional observations from a re-analysis of the deposited data

How the results depend on the processing

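Over all genes, 52 calls became 219 with the replicate block, 598 with DESeq2, between 1 and 23 when 1 library was left out, and 816 when wild-type replicate 1 and plp-1(ok2155) replicate 3 were left out together, an alternative chosen after seeing the data. The counts of called genes in the flp, nlp and nlp-24 to nlp-34 classes were 0 and became 1, 1 and 1 with both libraries left out; DESeq2 called 1 nlp gene and 1 of the transcripts, both nlp-20. Among the pathway lists, the replicate block called 1 gene and DESeq2 1 gene, in both cases pmk-1, and 6 were called with both libraries left out. The replicate block changed no other call among the neuropeptide genes and pathway lists; among the markers it called 3 of the epidermis, 2 of sperm and 1 of body muscle (unc-22), against 0 without it. At an unadjusted p under 0.05, the edgeR fit with the replicate block had 3 flp and 3 nlp genes lower, and 0 higher. It had 4 genes of nlp-24 to nlp-34 higher and 0 lower. Over all 15090 tested genes, 975 were lower and 1293 higher by the same rule. The cause of these differences was not tested.

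With 1 library left out, the median log2 fold change ranged between -0.58 and -0.29 in flp genes, between -0.53 and -0.32 in nlp genes and between 0.01 and 1.16 in nlp-24 to nlp-34. Under the other scalings the class medians were -0.44 and -0.44 in flp, -0.38 and -0.39 in nlp, and 0.67 and 0.70 in nlp-24 to nlp-34. Of 73 named genes, 53 had 1 sign under every one of the 13 alternatives that gave a value for them (a stricter filter or fewer libraries left out a few, such as nlp-39): 10 of 16 flp, 14 of 19 nlp and 5 of 10 of nlp-24 to nlp-34. Depth limits nlp-22, nlp-23, nlp-32, nlp-45, nlp-46 and flp-23, which had too few counts to test.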
